A study of Mus musculus with 178 samples.

Results

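The adult haemoglobin genes of the mouse are Hba-a1 and Hba-a2, which encode the alpha chain, and Hbb-bs and Hbb-bt, which encode the adult beta chain. These 4 genes were chosen by their symbols, and all 4 were found among the 55450 rows of the count table and the 55341 rows of the TPM table. They were followed in 178 whole blood RNA-seq libraries from 45 C57BL/6J mice of 6 to 8 weeks and both sexes, with orthotopic tumors of 4MOSC1, a carcinogen-induced oral squamous carcinoma line, in the tongue or buccal mucosa. Each mouse was given an antibody against PD-1 (clone RMP1-14) every 3 days, and blood was taken on Day 4 before treatment and on Days 9, 17 and 24 during treatment. No untreated mice were analysed here, so day and treatment cannot be told apart. Response by RECIST criteria divided the mice into 15 responders and 30 non-responders. Responders gave 15 libraries on Day 4, 15 on Day 9, 14 on Day 17 and 15 on Day 24, and non-responders gave 29 libraries on Day 4 and 30 on each later day. Libraries are named as in the labels, by running number, day and mouse number, and a mouse by its Day 4 library. The running numbers follow the day, and within a day responders come before non-responders as counted here. Whether the numbers follow the order of processing is not given in the sources used here. An effect of that order could not be told apart from day or response. Library 104_D17_7203 is labelled responder while the other 3 libraries of this mouse are labelled non-responder, and it was counted with the non-responders. The mouse numbers form 2 series, of 4 digits (11 responders and 7 non-responders) and of 3 digits (4 responders and 23 non-responders), so that the series goes in part with the response. What the series stands for is not given in the sources used here.

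Adult haemoglobin is a tetramer of alpha and beta chains in equal number, each carrying an iron-containing haem. Red cell precursors make very large amounts of globin mRNA, and reticulocytes, the young red cells released into blood, still carry it after the nucleus is lost, so globin mRNA is the main mRNA of whole blood when it is not depleted. Transcription factors of the erythroid lineage (Gata1, Klf1, Tal1) and a distant enhancer drive each cluster, in which embryonic genes stand upstream of the adult ones.

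The 2 genes of each pair are close to identical, which bears on every ratio between them. Hba-a1 (chr11:32283511-32284465, plus strand) and Hba-a2 (chr11:32296489-32297298, plus strand), each of 3 exons in the GENCODE M21 annotation of GRCm38, have coding sequences of 426 bases without the stop codon that differ at a single base, C381T from Hba-a1 to Hba-a2, counted from the A of the start codon. Hbb-bs (chr7:103826534-103828096, minus strand) and Hbb-bt (chr7:103812524-103813996, minus strand), also of 3 exons, have coding sequences of 441 bases that differ only by C417T from Hbb-bs to Hbb-bt. Both bases are the last of their codon, codon 127 of the alpha and codon 139 of the beta chain, in exon 3. The 31 bases around each site are shown because no other coding base separates the genes of a pair, with the differing base in capitals (chr11:32284328-32284358 and chr11:32297145-32297175 on the plus strand, chr7:103826677-103826707 and chr7:103812668-103812698 on the minus strand):
Hba-a1: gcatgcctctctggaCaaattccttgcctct
Hba-a2: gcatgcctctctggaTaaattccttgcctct
Hbb-bs: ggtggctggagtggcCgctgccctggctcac
Hbb-bt: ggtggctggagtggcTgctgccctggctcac

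Of the stretches of 50 bases in the annotated transcript of Hba-a1 (699 bases), 67.5% also occur in that of Hba-a2 (554 bases), and 86.9% of those of Hba-a2 occur in Hba-a1. For the beta pair, 65.8% of the 50-base stretches of Hbb-bs (628 bases) occur in Hbb-bt (703 bases) and 58.3% the other way round. The deposited counts of single members were not whole numbers in any of the 178 libraries, whereas the sum of the alpha pair and the sum of the beta pair were each whole, within 0.02 counts, in 178 of 178 libraries. Fractions of reads thus cancelled within each pair. The summed share and the alpha to beta balance do not depend on how reads were divided within a pair, while Hba-a1 to Hba-a2 and Hbb-bs to Hbb-bt do, and those 2 ratios are uncertain in that respect.

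The sequences before the RefSeq start sites show the same grouping, and 1 stretch per chain is given because members of a chain are compared with each other and with the other chain throughout. Of the 120 bases before the RefSeq start (GRCm38.p6), Hba-a1 and Hba-a2 are identical at 117 of 117 aligned bases, Hbb-bs and Hbb-bt at 88 of 119 (73.9%). Hba-a1 and Hbb-bs share 45 of 118 (38.1%). The RefSeq starts differ from those of the GENCODE spans given above. The windows of Hba-a1 and Hbb-bs lie within those spans, and the stretch of Hba-a2 shown lies before its span. 4 motifs were searched on both strands. The first, CCAAT, is the letters of the promoter element bound by the factor NF-Y. The second, CACCC, is the core of the element bound by the erythroid factor Klf1. The third, TATAA, is the element near the start of transcription that the TATA-binding protein recognises. The fourth, GATAA, is a form of the element bound by Gata1. The stretches shown are chr11:32296372-32296488 (plus strand, 117 bases) and chr7:103827929-103828011 (minus strand, 83 bases), with motif matches in capitals:
Hba-a2: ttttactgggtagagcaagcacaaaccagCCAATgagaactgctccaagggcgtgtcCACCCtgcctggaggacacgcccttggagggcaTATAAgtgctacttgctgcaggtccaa
Hbb-bs: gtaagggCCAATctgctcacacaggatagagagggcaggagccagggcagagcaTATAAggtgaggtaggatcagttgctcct

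The CACCC of Hbb-bs lies 90 to 86 bases before the start, beyond the bases shown. All 4 windows of 120 bases hold the first 3 of these motifs, as do 0.688% of 32851 RefSeq promoter windows of the same length. Taken singly, the motifs occur in 21.3%, 31.7%, 11.8% and 10.5% of them, in the order given. The fourth has no match in the 4 windows.

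Libraries held 26058958 to 82208665 counts, with a median of 51971365, and 4536704 to 22177381 counts outside the 4 genes. At this depth the 95% Wilson interval of a share extends at most 0.0155 percentage points to either side, which covers counting error only. No pair of libraries was identical. Whole blood was also checked by its markers: Alas2 (log2 CPM of 11.91 to 17.77) and Slc4a1 (5.81 to 12.82) for red cells, Ptprc (7.40 to 8.30) for leukocytes and Ppbp (5.42 to 9.58) for platelets were detected in every library, whereas Krt5 of squamous epithelium had a median log2 CPM of -3.86 and the muscle gene Ckm of -4.31. Epithelial markers were high in some libraries, Krt5 up to 4.93 and Krt14 up to 6.02. Their sum had its highest median (1.00) and value (6.98) in non-responders on Day 9, and the 1 marker that could be tested rose from Day 4 to Day 9 by 4.14 in non-responders and 4.19 in responders (log2 fold changes in edgeR fits, adjusted p of at most 0.05 in each). Their part in the haemoglobin results was not tested. Library 166_D24_7224, from a non-responder, stood apart: its scaling factor (TMM) was 0.0848, where the second lowest of the series was 0.266, and only 12630 genes were counted in it, the fewest of all. It also had the highest haemoglobin share of all libraries, and results that use it are given with and without it where it changes them.

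The 4 genes were the 4 most abundant of the blood transcriptome. In counts, Hbb-bs took a median of 37.8% of a library (30.6 to 46.1%), Hba-a1 18.2% (14 to 23.6%), Hba-a2 18% (14.1 to 26.8%) and Hbb-bt 6.26% (4.57 to 8.44%). The next genes were Alas2, the erythroid enzyme that starts haem synthesis, with a median of 1.25%, and Bpgm, which makes the 2,3-bisphosphoglycerate that lowers the oxygen affinity of haemoglobin, with 0.442%. Per length, on the TPM scale, the median level was 433083 for Hbb-bs, 258514 for Hba-a2, 183095 for Hba-a1 and 57618 for Hbb-bt, and the 4 together made up a mean of 93.8% ± 1.35 (SD, n = 178) of the TPM of a library.

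Hbb-bs was the highest and Hbb-bt the lowest of the 4 by counts in 178 of 178 libraries, so that these ranks did not overlap within any library. The order of the alpha genes depended on the unit. Hba-a1 exceeded Hba-a2 by counts in 107 libraries and fell below it in 71, whereas on the TPM scale Hba-a2 was above Hba-a1 in 178 of 178. The beta counts exceeded the alpha counts in 172 libraries. In the 6 others alpha exceeded beta, 4 of them on Day 4 and 2 on Day 17. On the TPM scale alpha exceeded beta in 46 libraries, so only changes of the balance, and not its level, are compared between units.

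The first question was whether the haemoglobin share differed between responders and non-responders. The 4 genes together took 75.4 to 87.8% of the counts in responders on Day 4 (median 83.8%) and 68.7 to 87.4% in non-responders (median 79.4%). On Day 9 the share ran from 76.7 to 87.2% in responders (median 83.1%) and from 69.3 to 84.1% in non-responders (median 78.5%). The groups overlapped on both days, and the lowest libraries were those of non-responders.

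The mean share was 83% ± 4.12 (SD, n = 15) in responders and 77.8% ± 5.21 (n = 29) in non-responders on Day 4, a difference of 5.22 percentage points (standard error 1.44, two-sided permutation test, adjusted p = 0.00971). On Day 9, the early on-treatment time point, it was 82.7% ± 3.27 (n = 15) and 78.2% ± 3.69 (n = 30), a difference of 4.47 points (standard error 1.08, adjusted p = 0.00198). P-values of the single values were adjusted by the Benjamini-Hochberg method over all 52 tests of 4 measures, of which 19 passed the threshold of 0.05. In bulk blood, fewer cells of a type and less RNA per cell cannot be told apart.

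By Day 17 the groups lay closer together, at 82.6% ± 3.74 (n = 14) and 81.6% ± 2.46 (n = 30), a difference of 1.02 points (standard error 1.1, permutation test, adjusted p = 0.44). On Day 24 they stood at 81.8% ± 2.85 (n = 15) and 81.5% ± 2.83 (n = 30), a difference of 0.328 points (standard error 0.899, adjusted p = 0.793). Responders on Day 17 ranged from 73 to 87.3% and non-responders from 77.1 to 86.7%, and on Day 24 the ranges were 76.9 to 87.3% and 76.3 to 88%.

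**Figure D1:**
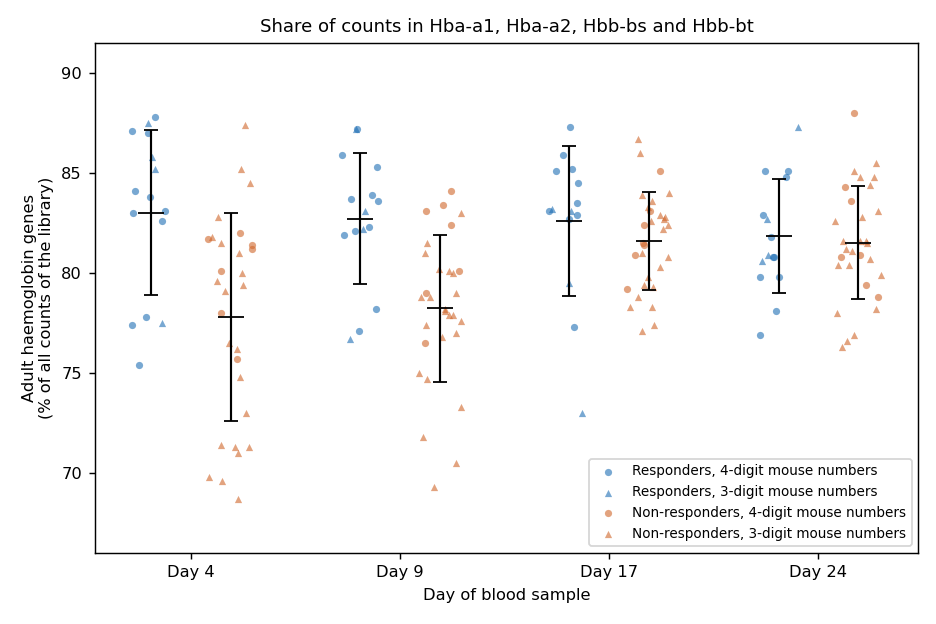
Share of all counts of a library in the 4 adult haemoglobin genes (y axis, percent, starting above 0) by day of the blood sample and response; each point is 1 library, circles are 4-digit and triangles 3-digit mouse numbers, and black bars are means ± SD. Non-responders reach down to 68.7% on Day 4 and 69.3% on Day 9 and no lower than 77.1% on Day 17.

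Within the series of mouse numbers, the Day 4 difference was 2.62 points among 4-digit mice (82.6% in 11 responders and 80% in 7 non-responders, exact permutation test, adjusted p = 0.353) and 6.94 points among 3-digit mice (84% in 4 and 77.1% in 22, exact permutation test, adjusted p = 0.0959). On Day 9 it was 1.61 points (adjusted p = 0.551) and 4.98 points (adjusted p = 0.077) by the same exact permutation test. Each direction was kept within each series on these 2 days, but no difference passed the threshold within a series. With response permuted within the series, the Day 4 and Day 9 differences still passed.

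The second question was whether the share changed from Day 4. In non-responders the Day 17 share exceeded that of Day 4 by 3.79 points (adjusted p = 0.00448 by permutation, standard error 1.07), with 19 of 29 mice going up. The Day 24 share exceeded it by 3.71 points (adjusted p = 0.00763, standard error 1.1), with 20 of 29 going up. On Day 9 the difference was 0.442 points (adjusted p = 0.793, standard error 1.18), with 15 of 29 going up. Among the 4-digit non-responders alone, the differences to Day 17 and Day 24 were 1.92 (adjusted p = 0.322) and 2.23 points (adjusted p = 0.387, exact permutation tests, 7 mice).

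In responders no change from Day 4 passed the test: the differences were -0.309 points on Day 9 (standard error 1.36, adjusted p = 0.848), -0.416 on Day 17 (1.46, adjusted p = 0.826) and -1.19 on Day 24 (1.29, adjusted p = 0.526, permutation tests). The change to Day 24 differed between the response groups by -4.92 points (standard error 1.59, permutation of response over mice, adjusted p = 0.0246), with a mean change of -1.19 in responders and 3.74 in non-responders. Without mouse 5_D4_7208 its adjusted p was 0.0505, the highest over the mice left out in turn, and with response permuted within the series it was 0.0792 at -4.28 points. The differences of changes to Day 9 (-0.688 points, adjusted p = 0.8) and to Day 17 (-3.94 points, adjusted p = 0.106) did not pass.

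The share moved with other properties of the libraries. Mitochondrially encoded transcripts took 1.05% of the counts in non-responders and 0.838% in responders on Day 4, and 0.855% and 0.694% on Day 9. On Day 4, 17101 and 16063 genes had a count. Within response groups, the share was lower in libraries with more mitochondrial transcripts on each day, with Pearson's r from -0.51 on Day 4 (permutation adjusted p = 0.00244, n = 44) to -0.80 on Day 9 (adjusted p = 6.67e-05, n = 45) and Spearman's rho of -0.49 and -0.85. Without the 2 libraries farthest from the median r was -0.58 and -0.76, and it was negative in both series on every day. Also within response groups, the share fell across the libraries of each day as the number of genes with a count rose, with Pearson's r from -0.89 on Day 4 (n = 44) to -0.71 on Day 17 (n = 44), each at the smallest permutation p possible (1e-05, adjusted p = 6.67e-05 over 40 relations), and Spearman's rho from -0.92 to -0.57. Without the 2 libraries farthest from the median, r was -0.89 on Day 4 and -0.56 on Day 17, and it was negative in both series of mouse numbers on every day. Haemoglobin reads leave fewer reads for all other genes, and the part of either property in the differences of share was not tested.

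The members differed in how they took part. Hbb-bt, the minor beta gene, took a mean of 5.56% ± 0.607 (SD, n = 29) of counts in non-responders on Day 4, 5.69% ± 0.486 (n = 30) on Day 9, 6.24% ± 0.386 on Day 17 and 6.9% ± 0.528 on Day 24. In responders the means were 6.38% ± 0.543 (n = 15), 6.39% ± 0.434 (n = 15), 6.18% ± 0.401 (n = 14) and 7.03% ± 0.622 (n = 15). Day 24 was thus the highest in each group. Hbb-bs, the major beta gene, likewise went from 34.3% ± 2.28 on Day 4 to 40.4% ± 2.19 on Day 24 in non-responders and from 36.8% ± 1.86 to 39.6% ± 1.63 in responders.

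The alpha genes went the other way in counts. Hba-a1 was at 18.8% ± 1.85 in non-responders on Day 4 and 17.5% ± 0.891 on Day 24, and at 19.8% ± 1.92 and 17.9% ± 1.22 in responders. Hba-a2 was at 19.1% ± 1.43 and 16.7% ± 0.617 in non-responders, and at 20.1% ± 1.19 and 17.3% ± 1.31 in responders. These shares of single members are descriptions, and the tests below are on their ratios and in the fits across all genes.

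**Figure D2:**
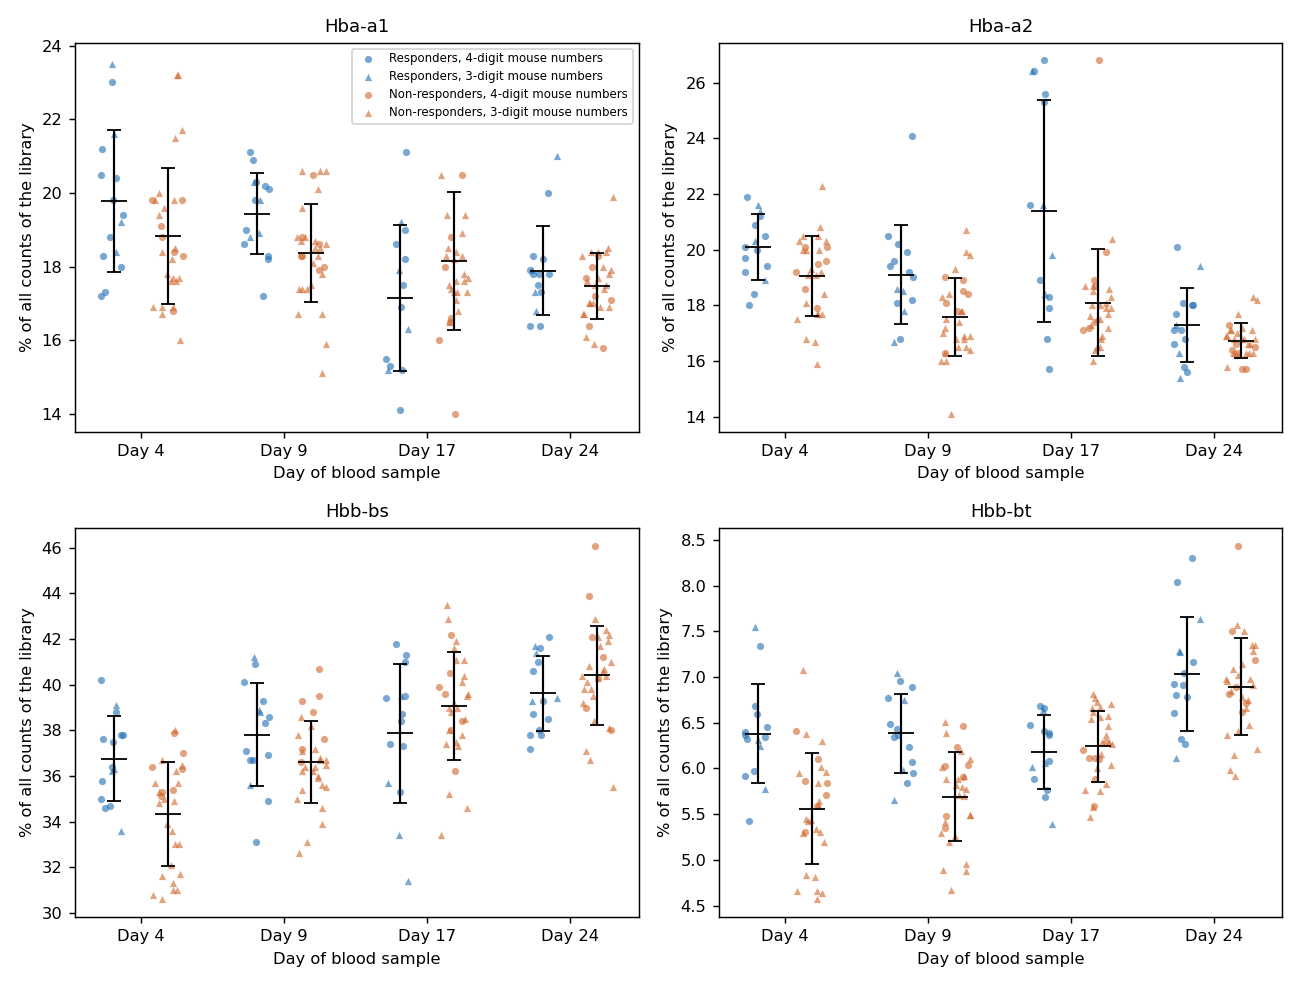
Share of all counts of a library in each adult haemoglobin gene (y axes, percent, each with its own range and not starting at 0) by day and response; points are libraries, circles 4-digit and triangles 3-digit mouse numbers, bars means ± SD. Both beta genes stand highest on Day 24, and Hba-a2 of responders is most spread on Day 17 (15.7 to 26.8%).

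The alpha to beta balance, log2 of the summed alpha counts over the summed beta counts, was lower on Day 24 than on Day 4 in both response groups. In non-responders it ran from -0.24 to 0.19 on Day 4 (median -0.09), from -0.34 to -0.07 on Day 9 (median -0.24), from -0.51 to 0.01 on Day 17 (median -0.38) and from -0.71 to -0.13 on Day 24 (median -0.47). In responders it ran from -0.20 to 0.03 on Day 4 (median -0.15), -0.31 to -0.02 on Day 9 (median -0.20), -0.39 to -0.00 on Day 17 (median -0.20) and -0.60 to -0.22 on Day 24 (median -0.41). The Day 24 and Day 4 libraries of responders did not overlap, and those of non-responders overlapped only between -0.24 and -0.13.

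In non-responders the balance fell by 0.16 to Day 9, 0.25 to Day 17 and 0.39 to Day 24 (standard errors 0.02, 0.03 and 0.02), each at the smallest p that the permutations can give (1e-05, adjusted p = 0.00013). It was higher than on Day 4 in only 2, 3 and 0 of the 29 mice. In responders it fell by 0.29 to Day 24 (standard error 0.04, adjusted p = 0.00013 by permutation, up in 0 of 15 mice) and by 0.08 to Day 9 (standard error 0.03, adjusted p = 0.0346, up in 4 of 15). The latter did not pass once any single mouse of 12_D4_311, 13_D4_315, 15_D4_327, 4_D4_7206 and 6_D4_7210 was left out (adjusted p up to 0.0761). To Day 17 the difference in responders was -0.08 (standard error 0.05, adjusted p = 0.189).

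As a share, alpha chains made up 48.7% ± 1.47 of the haemoglobin counts in non-responders on Day 4 (n = 29) and 45.9% ± 1.26 on Day 9 (n = 30). In responders they made up 48% ± 1.44 on Day 4 and 43% ± 1.86 on Day 24 (n = 15 each).

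The fall to Day 24 was present in each series of mouse numbers. Among non-responders it was -0.39 in 7 mice with 4-digit numbers (exact permutation test, adjusted p = 0.0152) and -0.39 in the 3-digit series (permutation test, adjusted p = 0.000173). Among responders it was -0.26 in the 4-digit series (permutation test, adjusted p = 0.00104) and -0.38 in 4 mice of the 3-digit series, where the smallest exact permutation p is 0.0286 (adjusted p = 0.0959). On the TPM scale the balance of non-responders went from 0.06 ± 0.08 (n = 29) on Day 4 to -0.33 ± 0.09 (n = 30) on Day 24.

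**Figure D3:**
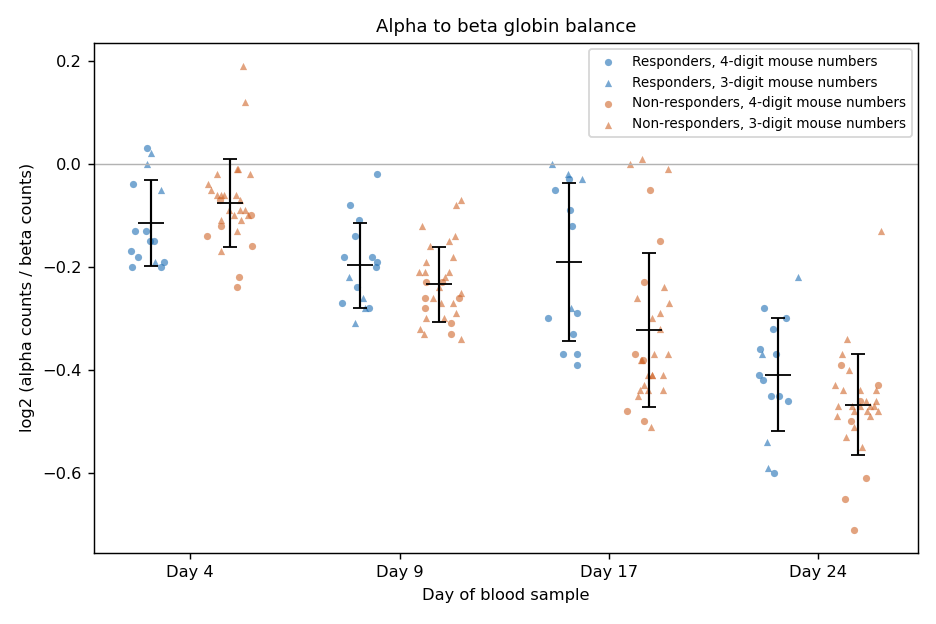
log2 ratio of summed alpha (Hba-a1, Hba-a2) to summed beta (Hbb-bs, Hbb-bt) counts (y axis) by day and response; points are libraries, circles 4-digit and triangles 3-digit mouse numbers, bars means ± SD, the grey line equal counts. All libraries of Day 24 lie below 0, at -0.71 to -0.13.

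Between the response groups, the balance differed on Day 17. It was -0.19 ± 0.15 (SD, n = 14) in responders and -0.32 ± 0.15 (n = 30) in non-responders, a difference of 0.13 (standard error 0.05, permutation test, adjusted p = 0.0327). This did not pass once any single mouse of 12_D4_311, 13_D4_315, 15_D4_327, 10_D4_7228 and 11_D4_7229 was left out (adjusted p up to 0.0651), and it was 0.07 in the 4-digit series (adjusted p = 0.622) and 0.25 in the 3-digit series (exact permutation test, adjusted p = 0.0412, 4 responders). The change from Day 4 to Day 17 differed by 0.17 between the groups (standard error 0.05, adjusted p = 0.00971), and by 0.14 with response permuted within the series (adjusted p = 0.0551). On Days 4, 9 and 24 the differences were -0.04, 0.04 and 0.06 (standard errors 0.03 each, adjusted p = 0.238, 0.204 and 0.159, permutation tests). The changes to Day 9 and Day 24 differed between the groups by 0.08 and 0.10 (adjusted p = 0.0826 each).

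On Day 17 the balance also went with sequencing depth. Within response groups it was lower in libraries with more counts (Pearson's r = -0.59, permutation adjusted p = 0.00015, Spearman's rho = -0.65, adjusted p = 6.67e-05, n = 44), with r of -0.59 without the 2 libraries farthest from the median and of -0.65 and -0.51 in the 3-digit and 4-digit series. On Day 9 r was -0.39 (adjusted p = 0.0298, n = 45), and on Days 4 and 24 it was -0.20 and -0.14 (adjusted p = 0.355 and 0.572). Total counts averaged 45975203 in responders and 52519014 in non-responders on Day 17. By ranks, the balance was higher in libraries with more mitochondrial transcripts on Day 17 (Spearman's rho = 0.36, permutation adjusted p = 0.0496, n = 44) and Day 24 (0.38, adjusted p = 0.0364, n = 45). Pearson's r was 0.30 and 0.31 (permutation adjusted p = 0.138 and 0.125). On Days 4 and 9 rho was 0.12 and 0.16 (permutation adjusted p = 0.641 and 0.554). The part of depth or of mitochondrial transcripts in the results on the balance was not tested.

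The alpha gene copies stood apart on the same day. The log2 ratio of Hba-a1 to Hba-a2 counts in responders ran from -0.26 to 0.21 on Day 4, -0.39 to 0.27 on Day 9, -0.92 to 0.43 on Day 17 and -0.13 to 0.22 on Day 24. In non-responders it ran from -0.24 to 0.27, -0.31 to 0.30, -0.93 to 0.35 and -0.08 to 0.22. Of the 9 libraries below -0.3, 7 were from Day 17, 6 of them from responders and 1 from a non-responder (105_D17_7220), and 2 were from Day 9. The highest ratio on the other side was 0.43, also in a responder on Day 17.

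The Day 17 mean was -0.30 ± 0.42 (SD, n = 14) in responders and 0.00 ± 0.21 (n = 30) in non-responders, a difference of -0.31 (standard error 0.12, permutation test, adjusted p = 0.00971). The change from Day 4 differed by -0.30 between the groups (standard error 0.12, adjusted p = 0.0147), by -0.14 in the 4-digit series alone (exact permutation test, adjusted p = 0.688) and by -0.25 with response permuted within the series (adjusted p = 0.11). The Day 17 difference was -0.38 in the 3-digit series (exact permutation test, adjusted p = 0.02, 4 responders) and -0.13 in the 4-digit series (exact permutation test, adjusted p = 0.688, 10 responders and 7 non-responders), and -0.24 with response permuted within the series (adjusted p = 0.11). In responders alone the change to Day 17 was -0.28 (standard error 0.12, adjusted p = 0.0581).

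In those responder libraries Hba-a2 was high and Hba-a1 low at once. Library 99_D17_7229 had a log2 ratio of -0.92, libraries 100_D17_311 and 98_D17_7228 of -0.79, library 97_D17_7227 of -0.76, library 96_D17_7226 of -0.58 and library 90_D17_7201 of -0.48. Their balance of alpha to beta was -0.03, -0.00, -0.05, -0.12, -0.09 and -0.30, so that 5 of these 6 libraries lay above the responder median of -0.20. The 6 responder libraries with a ratio of -0.02 or more had balances of -0.39 to -0.28, and the other 2, at ratios of -0.28 and -0.27, had balances of -0.03 and -0.02. Across the Day 17 libraries, within response groups, the 2 ratios went against each other (Pearson's r = -0.37, permutation adjusted p = 0.046, Spearman's rho = -0.37, adjusted p = 0.0397, n = 44), at -0.22 without the 2 farthest libraries and at 0.09 and -0.76 in the 3-digit and 4-digit series. The Day 17 relation thus rests on few libraries, and the 2 ratios share the alpha counts. On Day 4 the relation had the other sign (Pearson's r = 0.58, permutation adjusted p = 0.000267, Spearman's rho = 0.45, adjusted p = 0.00848, n = 44). There r was 0.50 without the 2 farthest libraries and 0.62 and 0.53 in the 3-digit and 4-digit series. On Days 9 and 24 r was -0.08 and 0.01 (permutation adjusted p = 0.76 and 0.979, n = 45 each).

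Smaller shifts of this ratio were found in non-responders, from -0.02 ± 0.10 (n = 29) on Day 4 to 0.06 ± 0.15 (n = 30) on Day 9 (0.08, adjusted p = 0.0434 by permutation, standard error 0.03, up in 20 of 29 mice) and 0.06 ± 0.07 on Day 24 (0.08, adjusted p = 0.00448, standard error 0.02, up in 25 of 29 mice). The Day 9 shift did not pass for 18 of the 30 mice left out in turn, with adjusted p from 0.0124 to 0.0796. Neither shift passed within a series (Day 9, 0.08 in each, adjusted p = 0.322 in the 4-digit and 0.16 in the 3-digit series; Day 24, 0.12 and 0.07, adjusted p = 0.1 and 0.073, permutation tests, exact for the 4-digit mice).

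The difference of the beta gene copies by response passed on Days 4 and 9. The log2 ratio of Hbb-bs to Hbb-bt counts was 2.53 ± 0.10 (SD, n = 15) in responders and 2.63 ± 0.12 (n = 29) in non-responders on Day 4, a difference of -0.10 (standard error 0.03, permutation test, adjusted p = 0.0246). On Day 9 it was 2.57 ± 0.14 (n = 15) and 2.69 ± 0.09 (n = 30), a difference of -0.12 (standard error 0.04, adjusted p = 0.00416). Hbb-bt thus took a larger part of the beta counts in responders than in non-responders, and in non-responders a larger part on Day 24 than on Day 4 (-0.08, standard error 0.03, adjusted p = 0.0137, lower in 24 of 29 mice). Without mouse 13_D4_315 the Day 4 difference had an adjusted p of 0.0567. Ranges overlapped, from 2.26 to 2.67 and from 2.32 to 2.83 on Day 4. On Days 17 and 24 the differences had the same sign but did not pass (-0.03 and -0.05, permutation tests, adjusted p = 0.529 and 0.169). The changes to Days 9, 17 and 24 did not differ between the groups at the threshold (permutation tests, adjusted p = 0.757, 0.212 and 0.44). Within the series the Day 4 differences were -0.09 (4-digit, adjusted p = 0.134) and -0.14 (3-digit, adjusted p = 0.201), and those of Day 9 -0.15 (adjusted p = 0.133) and -0.08 (adjusted p = 0.322, exact permutation tests). The Day 24 change of non-responders was -0.10 in the 4-digit (exact permutation test, adjusted p = 0.16) and -0.07 in the 3-digit series (adjusted p = 0.0959).

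**Figure D4:**
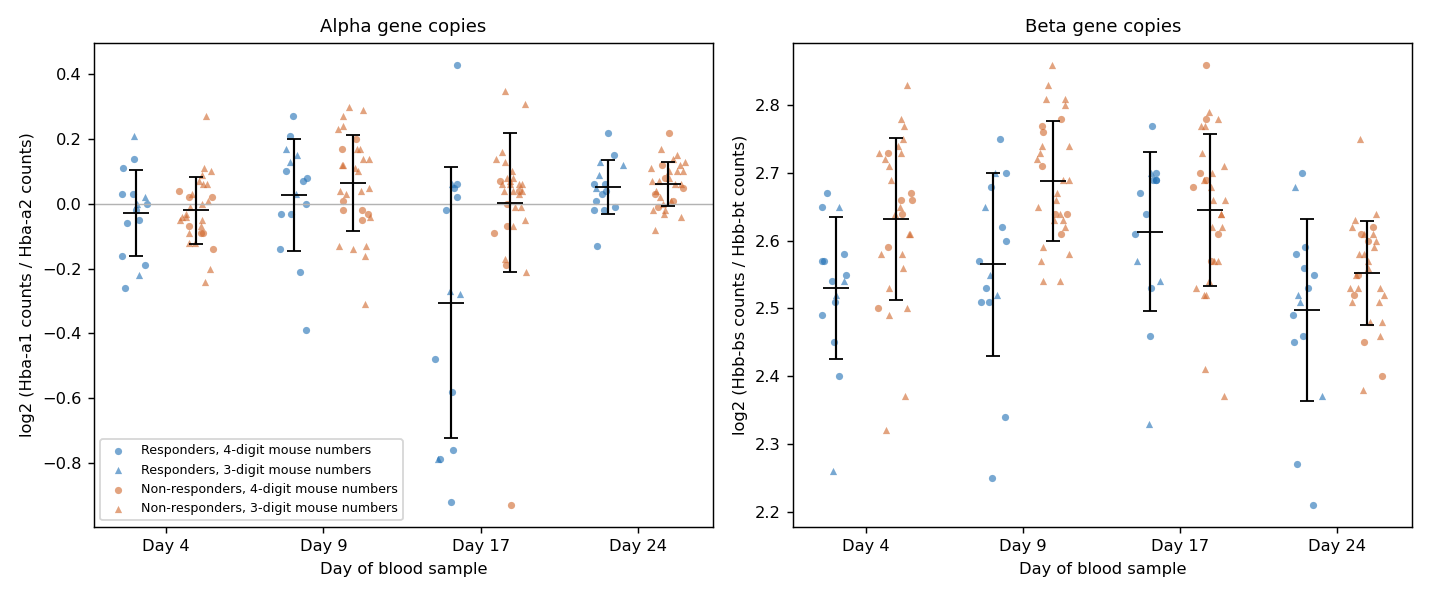
log2 ratio of counts between the 2 alpha genes (left) and the 2 beta genes (right), y axes, by day and response; points are libraries, circles 4-digit and triangles 3-digit mouse numbers, bars means ± SD, and the grey line at left marks equal counts. The alpha copies of responders on Day 17 reach down to -0.92, and the beta copies of responders have lower means than those of non-responders on each day.

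No relation of a mouse's share between days passed the test. The deviation of the share from its group mean on 1 day correlated with that on another at r of -0.21 to 0.19 over 43 to 45 mice (adjusted p of at least 0.689, permutation tests over 24 relations). The only relation of 24 that passed was that of Hbb-bs to Hbb-bt between Days 4 and 17 (Pearson's r = 0.46, adjusted p = 0.0394, n = 43), with Spearman's rho of 0.39 (adjusted p = 0.14), r of 0.41 without the 2 farthest mice, and r of 0.61 and -0.16 in the 3-digit and 4-digit series.

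The members were then read in edgeR quasi-likelihood fits across all genes, where TMM scales each library to the bulk of its genes, so that a fold change here is haemoglobin against most other genes and not a change of share. The median log2 fold change of all genes tested was between -0.02 and 0.01 in every comparison. In responders against non-responders on Day 9, all 4 members were higher, where 13.4% of 12608 genes were called in either direction and 9.43% were called higher. Hbb-bt was 1.84-fold higher (log2 fold change 0.88, standard error 0.17, adjusted p = 0.000117), Hba-a2 1.81-fold (0.86, 0.18, adjusted p = 0.000471), Hba-a1 1.74-fold (0.80, 0.18, adjusted p = 0.000745) and Hbb-bs 1.72-fold (0.78, 0.19, adjusted p = 0.00263). With the series of mouse numbers as a covariate 3 of the 4 were called, Hbb-bs no longer (0.61, adjusted p = 0.0508), beside 947 of 13139 genes. None of the 4 passed when all genes with a count in any library were kept (1638 of 25834 genes called), with log2 fold changes of 0.77 to 0.87.

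On Day 4, Hbb-bt was called higher in responders (2.14-fold, log2 fold change 1.10, standard error 0.30, adjusted p = 0.0135), where 7.42% of 12620 genes were called and 6.4% called higher. The other 3 members had log2 fold changes of 0.95 to 0.98 with larger standard errors of 0.35 to 0.38 (adjusted p = 0.0841 to 0.117). DESeq2 called all 4 members on this day, beside 1114 of 12620 genes, and edgeR with all genes of any count called none, beside 877 of 25545.

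On Day 17 and Day 24 none of the 4 was called between the response groups, where 1.99% and 8.55% of genes were. Hba-a2 had a log2 fold change of 0.50 on Day 17 (standard error 0.21, adjusted p = 0.164, unadjusted 0.0214) beside 0.17 for Hba-a1 (standard error 0.21, adjusted p = 0.658). DESeq2 called 1 member on Day 17 and none on Day 24, beside 571 of 12520 and 2064 of 12469 genes.

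In changes from Day 4, 3 members rose in non-responders to Day 24, where 48.7% of 13009 genes were called and 23.8% rose. Hbb-bt rose 2.08-fold (log2 fold change 1.06, standard error 0.22, adjusted p = 3.33e-05), Hbb-bs 1.95-fold (0.96, 0.23, adjusted p = 0.00032) and Hba-a1 1.44-fold (0.53, 0.21, adjusted p = 0.0326), with Hba-a2 at 0.46 (0.21, adjusted p = 0.0628). Library 166_D24_7224 carried much of these folds. Without it 2 members were called, Hba-a1 no longer (0.06, edgeR adjusted p = 0.773), beside 6464 of 13010 genes. The median log2 fold change of the 4 was then 0.24 in place of 0.75. The call of Hba-a1 was also lost with DESeq2 (0.07, adjusted p = 0.705), and scaled to library totals, which keeps the scale of shares, Hba-a1 and Hba-a2 were called lower (-0.11 and -0.19, edgeR adjusted p = 0.00118 and 8.60e-09), where 9155 of 13009 genes were called lower, at a median of -0.44.

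With the mouse as a replicate block, 2 members were called in non-responders to Day 24, Hba-a1 no longer (log2 fold change 0.29, edgeR adjusted p = 0.244), and 1 to Day 17. In these blocked fits 6533 and 6365 of 14663 genes were called. Without the block none of the 4 was called in non-responders to Day 9 or Day 17, where 50.8% and 46.1% of genes were called. In responders none was called to Day 9, 17 or 24, where 27.7%, 25.6% and 17.4% of genes were called, and the median log2 fold changes of the 4 were -0.24, -0.34 and -0.37.

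The change to Day 24 differed between the groups for Hbb-bs (-1.18, standard error 0.36, adjusted p = 0.0417) and Hbb-bt (-1.23, 0.35, adjusted p = 0.0307), where 3.76% of 13688 genes were called and 2.1% were lower in responders. Hba-a1 (0.501-fold, adjusted p = 0.0729) and Hba-a2 (0.509-fold, adjusted p = 0.081) missed the threshold. Without library 166_D24_7224 none of the 4 was called, at a median of -0.62, beside 154 of 13689 genes. DESeq2 called none of the 4, beside 874 of 13688 genes. For the changes to Day 9 and Day 17, none of the 4 was called, beside 0% and 0.351% of all genes. In the Day 9 comparison 719 genes had an unadjusted p under 0.05, and DESeq2 also called 0 genes.

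**Figure D5:**
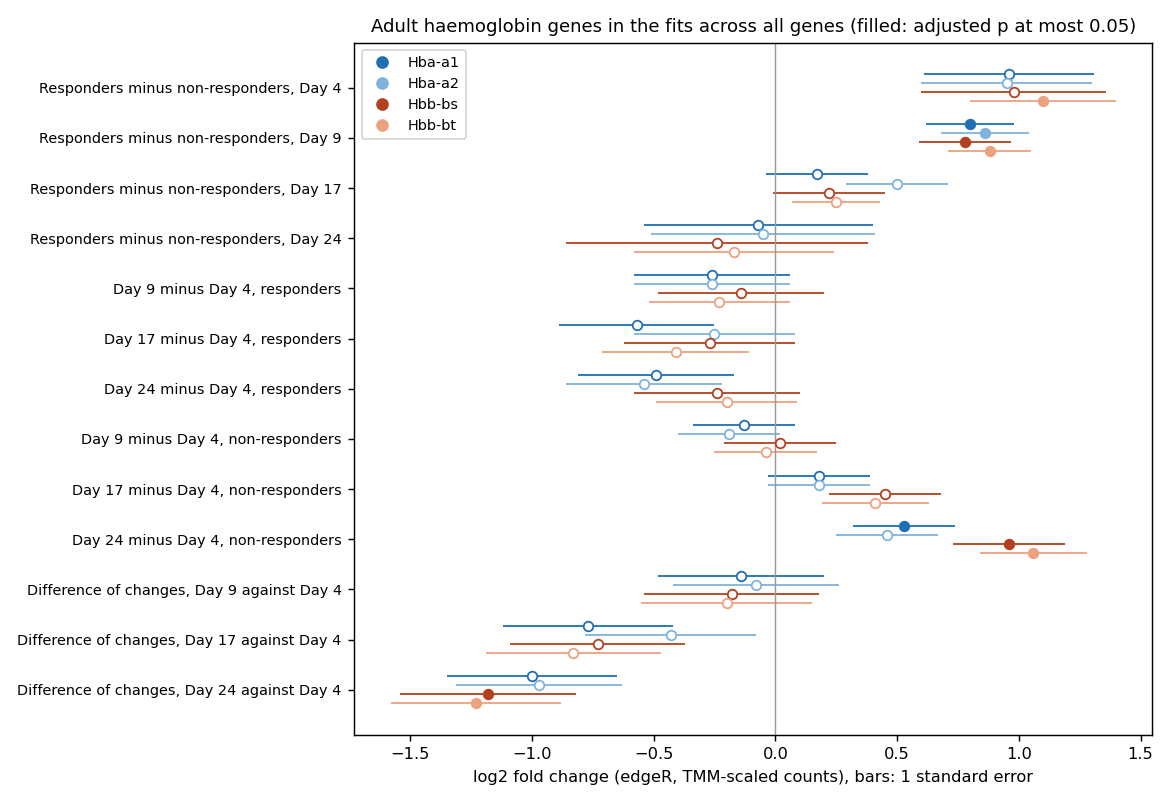
log2 fold changes of the 4 adult haemoglobin genes (x axis) in each comparison (y axis) from edgeR fits on TMM-scaled counts; bars are 1 standard error and filled points have an adjusted p of at most 0.05. All 4 points of responders against non-responders on Day 9 are filled, at 0.78 to 0.88.

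The other globin genes of the same clusters stood far below the adult ones. Hbq1a and Hbq1b, theta genes of the alpha cluster on chromosome 11, had a median of 1228 and 935 counts and were present in 178 of 178 libraries. Hbb-y, the embryonic epsilon-like beta gene, had a median of 16 counts (3 to 37) in 178 of 178 libraries. Hba-x, the embryonic zeta gene, had a median of 1 count and was counted in 110 libraries, Hbb-bh1 in 84 (highest 9 counts) and Hbb-bh2 in 1 library with 1 count.

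Hbq1a, Hbq1b and Hbb-y were the 3 of these 6 that could be tested. All 3 were called higher against most other genes in responders on Day 9 (log2 fold changes of 0.78, 0.86 and 0.85, standard errors 0.16, 0.16 and 0.21, edgeR adjusted p = 0.000187, 6.38e-05 and 0.00214), where 9.43% of all genes were. Their median TPM on Day 9 was 29.3, 26.2 and 0.37 in responders and 29.8, 24 and 0.35 in non-responders. In counts the Day 9 medians were 1120, 860 and 15 in responders and 1129, 832 and 14 in non-responders. On Day 4 Hbq1a (0.99, standard error 0.24, adjusted p = 0.00574) and Hbq1b (1.07, 0.25, adjusted p = 0.00351) were higher and Hbb-y was at 0.81 (0.33, adjusted p = 0.131), beside 6.4% of all genes called higher. On Days 17 and 24 none of the 3 was called, beside 1.99% and 8.55% of all genes.

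Haem synthesis genes went with the globin genes in part. Of 9 tested, 5 were higher in responders on Day 4 and 7 on Day 9, where 6.4% and 9.43% of all genes were called higher, with a median log2 fold change of 0.30 and 0.37 beside -0.01 and -0.02 over all genes. Alas2 was higher by 1.05 (standard error 0.26, adjusted p = 0.00732) and 0.81 (0.16, adjusted p = 0.000119). Fech, which inserts the iron, was higher by 1.11 (0.26, adjusted p = 0.0041) and 0.88 (0.15, adjusted p = 4.22e-05), and Urod, a middle enzyme of the pathway, by 0.99 (0.22, adjusted p = 0.00349) and 0.91 (0.16, adjusted p = 3.89e-05). On Days 17 and 24 none of the 9 was called, beside 1.99% and 8.55% of all genes. Without library 166_D24_7224, 2 were higher in responders on Day 24, at a median of 0.14 in place of -0.17, where 1571 of 12467 genes were called higher.

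From Day 4 to Days 9 and 17, 4 and 5 of the 9 rose in non-responders, beside 3030 and 2852 of 13009 genes. In responders 3 and 1 rose, beside 1694 and 1528 of 12560, and 0 fell in either group. From Day 4 to Day 24, 7 of the 9 rose in non-responders, beside 23.8% of all genes, and 0 in responders, beside 934 of 12560. The difference of changes was called for 4, lower in responders, beside 2.1% of all genes. In non-responders Alas2 was up by 1.07 (adjusted p = 3.24e-05, standard error 0.22), by 0.39 without library 166_D24_7224 (adjusted p = 0.0172), and it stood at -0.23 in responders (0.27, adjusted p = 0.598). Without library 166_D24_7224, 7 of 9 were still called higher in non-responders, at a median of 0.38 in place of 0.79, beside 2971 of 13010 genes. The difference of changes was then called for none, beside 154 of 13689 genes.

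Of the genes for globin chaperoning and iron supply, 11 of 12 listed were in the table and tested, Ahsp being not in it. On Day 4, 4 were higher in responders and on Day 9, 8, with medians of 0.23 and 0.40, beside 6.4% and 9.43% of all genes. On Day 24 none was called between the groups, beside 8.55% of all genes, and 4 were higher in responders without library 166_D24_7224, beside 1571 of 12467 genes. Ftl1, the ferritin light chain, was higher by 0.77 on Day 9 (standard error 0.14, adjusted p = 5.34e-05), Fth1, the ferritin heavy chain, by 0.48 (0.10, adjusted p = 0.000245) and Slc25a37, the mitochondrial iron importer mitoferrin, by 0.81 (0.15, adjusted p = 6.3e-05). From Day 4 to Day 24, Slc25a37 of non-responders rose by 1.32 (0.21, adjusted p = 1.34e-07), and by 0.71 without library 166_D24_7224 (0.14, adjusted p = 8.66e-06). With that library 5 of the 11 were called higher and 1 lower in non-responders, at a median of 0.24, beside 3100 higher and 3231 lower of 13009 genes. Without it 4 were called higher and 2 lower, at 0.05, beside 2971 higher and 3493 lower of 13010 genes. In responders Fth1 fell by 0.70 (0.20, adjusted p = 0.0108), and in non-responders it stood at -0.16 (0.16, adjusted p = 0.424) and fell by 0.50 without the library (0.11, adjusted p = 8.32e-05).

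Of the transcription factors of globin genes, 2 of 12 tested were higher in responders on Day 4 and 6 of 13 on Day 9, with medians of 0.25 and 0.33, beside 6.4% and 9.43% of all genes. Lmo2, a bridging factor of the Gata1 and Tal1 complex, was higher by 0.97 (standard error 0.21, adjusted p = 0.003) and 0.76 (0.14, adjusted p = 6.17e-05). Ldb1, which joins that complex to the distant enhancer, was at -0.09 (0.06, adjusted p = 0.392) and -0.05 (0.04, adjusted p = 0.476), and Zbtb7a, a repressor of fetal globin in humans, at 0.03 (0.06, adjusted p = 0.764) and -0.01 (0.04, adjusted p = 0.907). On Day 24, 3 of 12 were higher in responders, among them Zbtb7a (0.13, standard error 0.04, adjusted p = 0.0466), and Ldb1 was lower (-0.21, 0.06, adjusted p = 0.0167), where 425 of 12469 genes were higher and 641 lower. Without library 166_D24_7224, 9 of the 12 were called higher and 1 lower, beside 1571 higher and 1102 lower of 12467 genes. From Day 4 to Day 24 in non-responders, 3 of 13 rose and 5 fell (median -0.14), beside 3100 higher and 3231 lower of 13009 genes. Without that library 3 rose and 7 fell (-0.12), beside 2971 higher and 3493 lower of 13010. In responders 0 rose and 2 fell (-0.14), beside 934 higher and 1248 lower of 12560.

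Most genes of the red cell membrane and of red cell enzymes were higher in responders on Days 4 and 9, where 6.4% and 9.43% of all genes were. Of 18 membrane genes tested, 14 were higher in responders on Day 4 and 17 on Day 9, with medians of 1.15 and 0.99. Of 8 enzyme genes tested, 7 and 8 were higher, with medians of 1.10 and 0.92. Epb41, the membrane skeleton protein 4.1, was higher by 0.90 on Day 9 (standard error 0.16, adjusted p = 4.22e-05) and Slc4a1, the anion exchanger band 3, by 1.05 (0.19, adjusted p = 6.1e-05). Among the enzymes, Bpgm was higher by 0.91 (0.16, adjusted p = 4.52e-05), Gpx1, a glutathione peroxidase, by 0.90 (0.16, adjusted p = 4.52e-05) and catalase (Cat) by 0.87 (0.16, adjusted p = 5.34e-05).

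From Day 4 to Day 9, 13 of 18 membrane and 2 of 8 enzyme genes rose in non-responders, beside 3030 of 13009 genes. To Day 17, 13 and 6 rose, beside 2852 of 13009. In responders 2 and 1 rose to Day 9 and 1 and 0 to Day 17, beside 1694 and 1528 of 12560 genes. On these days 0 genes of either list fell, and none of the 4 members was called. On Day 24 against Day 4, 15 of 18 membrane and 7 of 8 enzyme genes rose in non-responders, beside 23.8% of all genes. Without library 166_D24_7224, 14 and 6 rose and 1 of each was called lower, beside 2971 higher and 3493 lower of 13010 genes. In responders 0 membrane genes and 0 enzyme genes rose, where 934 of 12560 genes did. The difference of changes was called for 7 membrane and 6 enzyme genes, lower in responders, beside 2.1% of all genes. Without library 166_D24_7224 it was called for 0 and 0, beside 154 of 13689 genes. Between the response groups on Day 24, 0 of the membrane and 0 of the enzyme genes were called with that library, and 15 and 6 were called higher in responders without it, where 2673 of 12467 genes were called against 1066 of 12469 with it. The calls of these lists on Day 24 thus turned on 1 library, while the members stayed uncalled in both cases (median log2 fold change -0.12 with it and 0.39 without it).

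Genes that clear haemoglobin and haem from plasma and tissue were described beside these. From Day 4 to Day 9, 5 of 5 tested rose in non-responders (median log2 fold change 0.91) and 3 of 4 in responders (0.64), where 50.8% and 27.7% of all genes were called in either direction. Between the groups on Day 9, 0 of 5 were called, beside 13.4% of all genes. On Day 4, 1 of 4 tested was higher in responders, beside 6.4% of all genes, and 0 of 6 when all genes with a count in any library were kept. The 1 called was Hp (haptoglobin, which binds free haemoglobin), at 0.46 (standard error 0.15, edgeR adjusted p = 0.0492). Hmox1, the haem-degrading oxygenase, was at 0.17 (0.12, adjusted p = 0.415) and Lrp1, the receptor of haem-haemopexin complexes, at 0.17 (0.12, adjusted p = 0.434).

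Markers of other blood cells were read beside the haemoglobin results. On Day 4, 6 of 6 red cell markers tested, 2 of 8 leukocyte markers and 0 of 5 platelet markers were higher in responders, and on Day 9, 6, 0 and 3 were, beside 6.4% and 9.43% of all genes. From Day 4 to Day 24 in non-responders, 6 of 6 red cell markers rose (median log2 fold change 1.65), 5 of 5 platelet markers fell (-0.64), and of 8 leukocyte markers 2 rose and 3 fell (-0.06), where 48.7% of all genes were called. Without library 166_D24_7224, 6 of 6 red cell markers rose at a median of 0.66, 5 of 5 platelet markers fell (-0.80), and 2 leukocyte markers rose and 4 fell (-0.10), beside 6464 of 13010 genes called. In responders to Day 24, 3 of 5 platelet markers (-0.75) and 2 of 8 leukocyte markers (-0.10) fell. There 0 of 6 red cell markers rose and the 1 epithelial marker tested rose (3.50), beside 17.4% of all genes called. In non-responders to Day 9, 3 of 6 red cell markers rose (0.60) and 4 of 5 platelet markers fell (-0.44). There 5 leukocyte markers rose and 3 fell (0.45), beside 50.8% of all genes called. Ahsp, the seventh listed red cell marker, is not in the table. The summed leukocyte markers had a median log2 CPM of 9.92 (9.48 to 10.23) in responders and 9.70 (9.44 to 10.02) in non-responders on Day 4, and of 10.07 (9.71 to 10.40) and 10.03 (9.80 to 10.41) on Day 9. The summed red cell markers had medians of 14.03 (12.48 to 15.65) and 13.09 (11.94 to 14.48) on Day 4, and of 14.22 (13.21 to 14.93) and 13.34 (12.20 to 14.40) on Day 9. These CPM were scaled by TMM, so each sum is a level against most other genes and not a part of all RNA. On library totals, the median gene stood at -0.69 (Day 4) and -0.70 (Day 9) in responders against non-responders (log2 fold change). The part of cell composition in the haemoglobin results was not tested.

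Finally, the genes whose level across the libraries was most like that of the summed haemoglobin genes were found among 12207 others by Pearson's r of log2 CPM over the 178 libraries, which share mice, scaling factors and group differences. The 10 highest were Oaz1 (0.99), an antizyme of polyamine synthesis, Slc25a39, a mitochondrial carrier, March2 and Ube2l6, enzymes of ubiquitin and ubiquitin-like transfer, Map1lc3b and Gabarapl2, Atg8 proteins of autophagosomes, the pseudogene Oaz1-ps, which may share reads with Oaz1, Alas2, Ost4, a subunit of the glycosylating oligosaccharyltransferase, and Snx3, a sorting nexin (0.98 each). The 5 lowest were Arhgap25 (-0.71), Top2b (-0.68), Hmgxb4, Tbc1d1 and Glyr1 (-0.67 each), beside a median of -0.14 over all genes.

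On deviations from the means of response group and day, the 10 highest lay at 0.98 to 0.99, and 8 of the 10 were also among the 10 highest there. Of the fixed lists, Alas2 ranked 7 and Snx3 10, Bpgm 18 (0.97), Hbq1a 29 (0.96), Ftl1 42 (0.96), Hbq1b 47 (0.95) and Lmo2 78 (0.94). Gata1 was at 0.89 (rank 231) and Slc4a1 at 0.85 (rank 373), whereas Alas1, the housekeeping counterpart of Alas2, was at -0.09 and Ldb1 at -0.42.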

How the data were processed

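Whole blood of tumor-bearing mice treated with anti-PD-1 was profiled by bulk RNA-seq of polyadenylated RNA (SMARTer mRNA-Seq kit). The authors aligned reads to mm10 (STAR in the submitters' processing notes) and deposited a table of estimated counts per gene and a table of TPM per symbol. The counting tool is not given in the sources used here. The deposited expected counts were not whole numbers in 3.14% of cells and were rounded for the fits across genes. TPM values, as deposited, summed to 999612 to 999805 per library. All gene identifiers were found in the GENCODE M21 annotation.

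Share, balance and copy ratios were computed per library from the counts as deposited and compared by two-sided permutation tests of the difference of means (100000 resamples, exact where a group had fewer than 10 mice), adjusted together by the Benjamini-Hochberg method. Genes were tested with edgeR 4.0.16 in R 4.3.3 (TMM, filterByExpr, glmQLFit, glmQLFTest, adjusted p of at most 0.05), with libraries of 1 day, of 1 response group or of all groups. DESeq2 1.42.0, other scalings and filters, the series of mouse numbers, left-out mice and single libraries were alternatives. The Day 24 library left out by plan was 162_D24_329, and leaving out library 166_D24_7224 was chosen after seeing the data. Scripts were tested on simulated data. Libraries of different days come from the same mice, so the mouse pairs them, although deviations from group means of the share correlated at only -0.21 to 0.19 between days. The main fits leave out the mouse as a block, and the paired values of the 4 measures and the members are given where they change a call. The gene lists and the gene-level differences of changes were not read with the block.

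The members and lists were chosen with earlier results of these data known. Named genes were the members and other globins, the 3 most abundant genes of each list, and the 10 most and 5 least correlated with summed haemoglobin. One gene that this rule names is not reported here. Gata1 and Alas1 were added after their values were seen. A Day 4 library of 1 non-responder and a Day 17 library of 1 responder were not analysed here.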

Additional observations from a re-analysis of the deposited data

Results flagged for a closer look

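The change of the haemoglobin share from Day 4 to Day 24 differed between responders and non-responders by -4.92 percentage points. The change of the alpha to beta balance to Day 17 differed by 0.17 and that of the Hba-a1 to Hba-a2 ratio by -0.30 on the log2 scale. In the edgeR fits the change to Day 24 differed for Hbb-bs (-1.18) and Hbb-bt (-1.23). Each is shown here because the difference of changes itself passed its test at an adjusted p of at most 0.05. With response permuted within the series of mouse numbers, the share (adjusted p = 0.0792), balance (0.0551) and Hba-a1 to Hba-a2 (0.11) differences did not pass. The 2 gene-level differences were not called without library 166_D24_7224. No group had 4 to 10 libraries, so single samples were not tested for standing apart.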

How the results depend on the processing

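Settings that changed a call or a direction of the share, the balance or the members are given here or beside the result, and the cause was not tested except where fewer mice or genes entered a test. With TPM in place of counts, the share difference on Day 17 was -0.0527 points and the responder changes to Day 9 and Day 24 were 0.067 and 0.0454, all uncalled and of the other sign, while the differences of changes to Day 17 in share (-1.59) and to Day 24 in balance (0.10) passed. By mean ranks the share of non-responders differed by 0 to Day 9. With response permuted within the series, the difference of share changes to Day 24 (-4.28), of balance changes to Day 17 (0.14) and of Hba-a1 to Hba-a2 on Day 17 and in its change (-0.24 and -0.25) no longer passed, and the balance on Day 4 was 0.01. In the 4-digit series alone, with fewer mice, share differences were 2.62 on Day 4, 1.61 on Day 9 and -0.804 on Day 24, responder changes 0.207 to Day 9 and 1.1 to Day 17, non-responder changes 1.92 and 2.23 to Days 17 and 24, and the difference of changes to Day 24 -3.43. The balance there differed by 0.01 on Day 4 and 0.07 on Day 17, changed by -0.03 in responders to Day 9 and by -0.16 in non-responders to Day 17, and its changes to Day 17 differed by 0.06. In the 3-digit series alone, share differences were 6.94, 4.98 and -1.74 on Days 4, 9 and 17 and -5.36 for the changes to Day 24. The balance there differed by -0.04 on Day 9 and by -0.04 for the changes to Day 9, and changed by -0.21 and -0.38 in responders to Days 9 and 24. Of these values, those that had passed in all mice did not pass within the series, and the others were uncalled before and after.

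Of the 4 members, DESeq2 called 4 on Day 4 and 1 on Day 17, beside 1114 of 12620 and 571 of 12520 genes. In non-responders it called 2 to each of Days 17 and 24, beside 6353 and 6362 of 13009 genes. It called 0 for the difference of changes to Day 24, beside 874 of 13688 genes. Library totals without TMM, which move the median log2 fold change of all genes by up to -0.70, called 10557 of 12620 genes on Day 4 and 9383 of 13009 in non-responders to Day 24. They called 3 members on Day 4, 3 of them higher. In responders they called 1 to Day 17 (0 higher) and 2 to Day 24 (1 higher), beside 117 and 136 of 12560 genes. In non-responders they called 2 to Day 9 (1 higher) and 3 to Day 17 (2 higher), beside 2706 and 9235 of 13009 genes. For the difference of changes to Day 17 they called 2 (0 higher), beside 162 of 13688 genes. In non-responders to Day 24 they called 4, of which Hba-a1 and Hba-a2 were lower (-0.11 and -0.19). Totals outside haemoglobin called 4 on Day 4, beside 5355 of 12620 genes, and 0 for the difference to Day 24, beside 60 of 13688. In non-responders they called 2 to Day 17 and 2 to Day 24 (Hba-a1 at 0.09, edgeR adjusted p = 0.446), beside 5035 and 5066 of 13009 genes. With all genes of any count, 0 were called on Day 4 and 0 on Day 9, beside 877 of 25545 and 1638 of 25834 genes. In that setting 1 was called in non-responders to Day 24 and 0 for the difference to Day 24, beside 5943 of 28169 and 247 of 29001 genes. With the series as a covariate, 1 was called for the difference to Day 24, beside 529 of 13748 genes. On Day 9 that setting called 3 (Hbb-bs at 0.61, edgeR adjusted p = 0.0508), beside 947 of 13139 genes. Without library 166_D24_7224, 0 were called for the difference to Day 24, beside 154 of 13689 genes, and Hba-a2 of non-responders stood at -0.01 on Day 24 against Day 4. With the mouse as a replicate block, 1 was called in non-responders to Day 17 and 2 to Day 24 (Hba-a1 at 0.29, edgeR adjusted p = 0.244), beside 6365 and 6533 of 14663 genes. Hbb-bs to Hbb-bt then passed in responders to Day 17 (0.07) and in non-responders to Day 9 (0.06). The block was run for changes from Day 4 within a response group, where it changed no other call of the 4 measures or the members. The gene-level differences of changes were not fitted with it.

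Leaving out mice singly, the share changed by -1.03 to 0.318 to Day 9 and by -1.11 to 0.285 to Day 17 in responders, differed by -0.0656 to 0.684 on Day 24, and its changes to Day 24 differed by -5.53 to -4.27. The balance changed by -0.1 to -0.07 in responders to Day 9, differed by 0.12 to 0.15 on Day 17 and 0.04 to 0.07 on Day 24, and its changes differed by 0.07 to 0.09 to Day 9 and 0.08 to 0.11 to Day 24. Of 26 comparisons of copy ratios, 16 passed in no setting. Hba-x, Hbb-bh1 and Hbb-bh2 had too few counts to be tested.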
